A study of Mus musculus with 8 samples.

Results

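The binding patterns of G9a and Ezh2 were compared in wild-type TT2 cells, a mouse embryonic stem cell line derived from a cross of a C57BL/6 female with a CBA male. All peaks on autosomes 1 to 19 were taken from 3 ChIP-seq peak lists, 1 per library. The G9a library gave 67077 such peaks, Ezh2 library 0 gave 5342 and Ezh2 library 1 gave 11593. Together these 84012 peaks are part of the 174428 peaks that the series holds in 5 lists. None of the 3 libraries carried a gene deletion or a treatment, and all came from cells grown in serum with LIF. The Ezh2 chromatin was fixed with formaldehyde alone, whereas the G9a chromatin was first fixed with DSG, a crosslinker that joins proteins to each other. Protein and fixation therefore cannot be told apart in any comparison below. Peak lists hold no expression values, so the labelled cell type was not checked against markers.

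Ezh2 is the enzyme subunit of Polycomb repressive complex 2 (PRC2), which methylates lysine 27 of histone H3. In embryonic stem cells PRC2 is known to sit at CpG-rich promoters of silent developmental regulators, and it spreads over long stretches where such genes lie side by side. G9a forms a complex with its relative GLP and adds methyl groups to lysine 9 of histone H3 in euchromatin, where the dimethyl mark is known to fill broad domains. The series asks how these repressive systems relate to each other. The question taken up here is whether their binding is organised alike along the chromosomes.

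The lists differ in ways that touch each result. The lowest peak score was 20 in G9a, 43.02 in Ezh2 library 0 and 30 in Ezh2 library 1. The score is the authors' own value for how unlikely a peak is. The lists thus reach down to unlike scores, lowest in G9a, and peak number, coverage, gaps and distances depend on that floor. G9a peaks covered 53.5 Mb (2.16% of the autosomes), against 4.00 Mb in library 0 and 14.9 Mb in library 1. There were 27.1 G9a peaks per Mb, with 2.16 and 4.69 Ezh2 peaks per Mb in libraries 0 and 1. Read depth is unknown. With 1 G9a library no test between the proteins was possible, and the gap between the Ezh2 libraries is the only replicate error. The labels do not say whether those libraries came from separate cultures, so that gap may be technical. The labels number the G9a library 1, as they do Ezh2 library 1, without saying whether the number marks a batch.

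Peak width did not order the proteins in 1 direction. The median width was 615 bp for G9a, 470 bp for Ezh2 library 0 and 721 bp for Ezh2 library 1. The Ezh2 libraries thus lay on either side of G9a, and the mean log2 ratio of Ezh2 to G9a was -0.08 ± 0.44 (SD, n = 2). Among peaks as called, the wide end of the distribution separated library 1 from the others. The 99th percentile was 3055 bp in G9a, 3434 bp in library 0 and 8957 bp in library 1. Peaks of at least 5 kb numbered 100 of the 67077 G9a peaks (0.149%), 15 in library 0 (0.281%) and 351 in library 1 (3.03%). In library 1 they held 20.8% of all bases under peaks, against 1.19% in G9a and 2.32% in library 0. No G9a or library 0 peak reached 20 kb, and 6 library 1 peaks did.

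**Figure D1:**
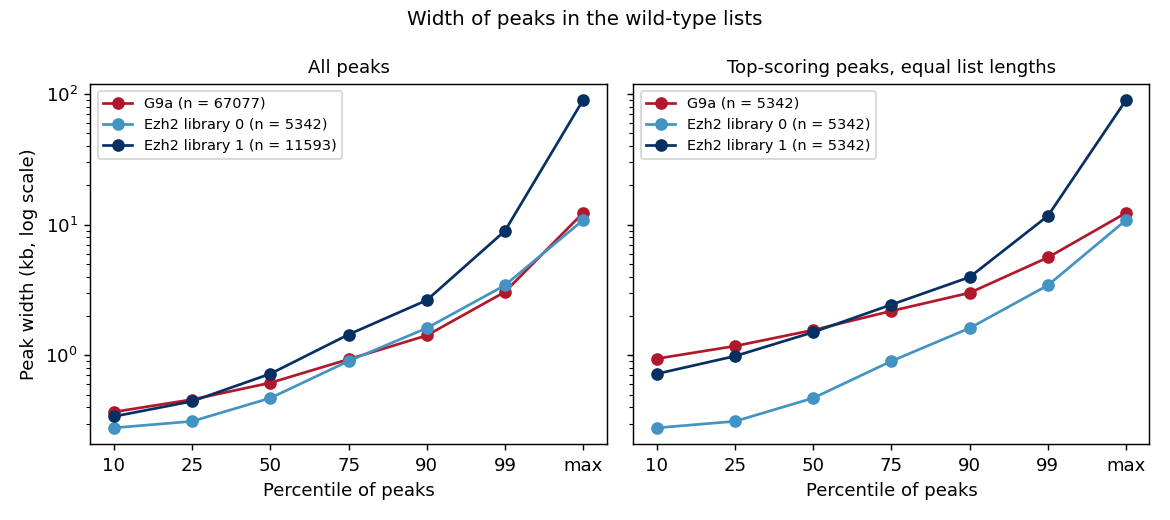
Peak width in kb (log axis) at percentiles of each list, for all peaks (left) and for the 5342 top-scoring peaks of each list (right). Library 1 rises above both other lists from the 75th percentile on in each panel, and the library 0 median of 470 bp is the lowest.

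Width rose with peak score in each list. Each list was split by score into 10 groups of equal size. From the lowest-scoring 10% to the highest-scoring 10%, the median width went from 414 to 1478 bp in G9a. It went from 291 to 2111.5 bp in library 0 and from 351 to 3715 bp in library 1. The order at the median was thus that of G9a above both Ezh2 libraries in the lowest-scoring 10%, and below both in the highest-scoring 10%. These groups lie at unlike scores. The median score of the highest-scoring 10% was 164 in G9a, 829 in library 0 and 1794 in library 1. Nearer to the G9a value, group 8 of library 0 (median score 216) had a median width of 877.5 bp. Group 8 of library 1 (median score 194) had 1350 bp, so both lay below the 1478 bp of G9a. When each list was held to its 5342 top-scoring peaks, the median was 1559.5 bp for G9a and 1502 bp for library 1. Library 0, whose whole list enters at that length, stayed at 470 bp.

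The narrow peaks of library 0 were in part pieces of longer Ezh2 domains. Of the 351 library 1 peaks of at least 5 kb, 350 overlapped library 0 and 325 (92.6%) held 2 or more library 0 peaks, with a median of 4. When peaks of a list within 1 kb of each other were joined into domains, the median width became 794 bp in library 0 and 911 bp in library 1, both above the 659 bp of G9a. The joined lists held 2969, 8210 and 54840 domains. Joining therefore turned the mean log2 ratio to 0.37, with both libraries on the same side (0.27 and 0.47). The wide end shifted too. After joining, the 90th percentile was 3645 bp in library 0, 3883 bp in library 1 and 2160 bp in G9a. Before joining it was 1614, 2639 and 1417 bp. Domains of at least 5 kb numbered 182, 537 and 771 in that order.

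The 3 widest peaks of each list are given here as places, not as a test of overlap, since few positions of such widths meet an Ezh2 peak. Positions are given on mm9. The widest G9a peak ran from 71091568 to 71103884 on chromosome 7 (12317 bp), and the next ran from 91475056 to 91487062 and from 91509223 to 91519812 on chromosome 8. None of these 3 held an Ezh2 peak of either library. The widest library 0 peak was on chromosome 11 from 84332530 to 84343373 (10844 bp). It was followed by the peak at 78191182 to 78198842 of chromosome 1 and the one at 85649172 to 85655602 of chromosome 11. All 3 were covered over their whole length by 1 library 1 peak each, and none held a G9a peak. The widest library 1 peak spanned 90112 bp on chromosome 11, from 96129021 to 96219132. Library 0 covered 67.0% of it and G9a 1.54%. The next, on chromosome 6 from 52145250 to 52205340, was covered to 67.8% by library 0 and 0.762% by G9a. The last, on chromosome 2 from 74511324 to 74543344, was covered to 62.6% by library 0 and held no G9a peak.

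Clustering also depended on how long a list was. Of the G9a peaks, 71.0% (47593) had another G9a peak within 10 kb, edge to edge. The share was 72.8% (3890) in library 0 and 59.7% (6924) in library 1. The Ezh2 libraries again lay on either side of G9a, with a mean difference of -4.68 ± 9.26 percentage points (SD, n = 2). G9a, however, had 12.6 times as many peaks as library 0 on the same chromosomes. At equal length, the 5342 top-scoring peaks of each list had a neighbour within 10 kb in 30.8% of cases for G9a and 51.5% for library 1. The value for library 0 was 72.8%, so both Ezh2 libraries then lay above G9a, by 42.0 and 20.6 points. Joining peaks within 1 kb was applied to the full lists only, where the mean difference was -4.68 points before joining. After joining, both libraries lay below G9a, by a mean of -32.5 points (-30.6 and -34.3). Joining takes away every neighbour within 1 kb, which 65.3% of library 0, 46.8% of library 1 and 31.4% of G9a peaks had.

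**Figure D2:**
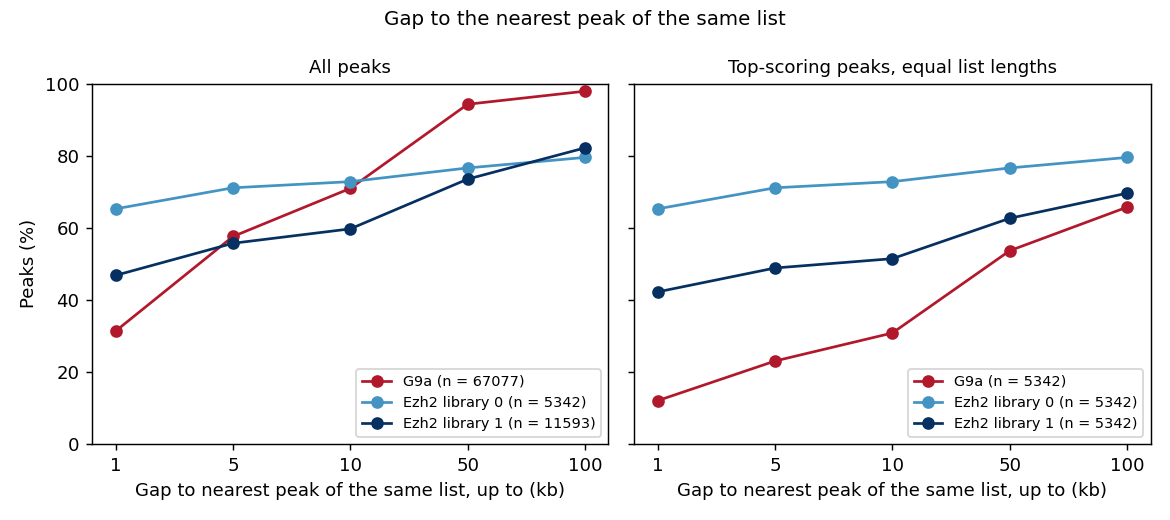
Share of peaks (%) whose nearest peak of the same list lies within 1 to 100 kb, at unevenly stepped distances, for all peaks (left) and for 5342 top-scoring peaks per list (right). On the left G9a starts lowest (31.4% within 1 kb) and ends highest (97.9% within 100 kb); on the right it is the lowest at each distance.

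Called Ezh2 peaks lay at shorter gaps from each other than G9a peaks. In library 0, part of these gaps separate pieces of a longer Ezh2 domain, as described for width. The median gap to the nearest peak of the same list was 304.5 bp in library 0, 1598 bp in library 1 and 3336 bp in G9a. Relative to the mean spacing of each list, which was 463, 213 and 36.9 kb, these gaps were 0.0658%, 0.749% and 9.05%. Within 1 kb, 65.3% of library 0 peaks and 46.8% of library 1 peaks had a neighbour, against 31.4% of G9a peaks. Within 50 kb the share was 76.6% in library 0, 73.5% in library 1 and 94.3% in G9a. Joining of nearby peaks showed this from the other side. With gaps of up to 1 kb joined, library 0 shrank to 55.6% of its peaks and G9a to 81.8%. With gaps of up to 20 kb joined, they stood at 43.5% and 34.3%. Library 1 went from 70.8% to 55.9%.

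Clusters were then formed by chaining peaks of a list at gaps of at most 10 kb. Clusters of 3 or more peaks held 52.4% of G9a peaks in 7031 clusters, with a median span of 12909 bp. In library 0 they held 55.8% of peaks in 486 clusters with a median span of 6592.5 bp. In library 1 they held 37.4% in 1005 clusters with a median span of 7967 bp. At equal list length the shares were 11.2% for G9a, 55.8% for library 0 and 27.9% for library 1. Clusters of 10 or more peaks then numbered 1, 73 and 10. The 73 and 10 are of the same protein, so peak counts also differ by how a list splits a stretch. The span of the library 1 cluster with most peaks held 34 library 1 and 73 library 0 peaks.

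The 3 clusters with most peaks in each list were described by what they held of the other protein. The G9a cluster with most peaks ran from 100305170 to 100434100 on chromosome 6, with 43 G9a peaks and no Ezh2 peak of either library. The next, from 34572209 to 34695981 on chromosome 3, held 41 G9a peaks and no Ezh2 peak. These spans of 129 and 124 kb are short against the mean Ezh2 spacing of 463 kb in library 0 and 213 kb in library 1. Finding no Ezh2 peak in them therefore says little. The last, from 121185829 to 121352169 on chromosome 1, held 39 G9a peaks, 2 of library 0 and 3 of library 1, and G9a covered 56.5% of it. Library 0 covered 0.985% and library 1 2.34% of that last cluster, above their 0.162% and 0.601% of all autosomal positions. The Ezh2 cluster with most peaks in each library was the same stretch of chromosome 15. It ran from 102739922 to 102872232 in library 0 (73 peaks) and from 102726273 to 102872582 in library 1 (34 peaks), and both spans held 3 G9a peaks. The second cluster of library 0 (96112655 to 96235202 of chromosome 11) had 60 library 0 and 4 G9a peaks. The third (52106504 to 52224492 of chromosome 6) had 57 and 1. Library 1 had 22 peaks in each of its following clusters. One spanned 74485257 to 74602777 of chromosome 2 and held 3 G9a peaks, and the other spanned 52096880 to 52226941 of chromosome 6 and held 1. These 6 Ezh2 clusters are not 6 separate places, since those on chromosomes 15 and 6 overlap between the libraries. In them G9a covered between 0.352% and 1.80% of the span, where it covered 2.16% of the autosomes.

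The distance from each Ezh2 peak to the nearest G9a peak had a median of 10.5 kb in library 0 and 7.33 kb in library 1. The middle range (25th to 75th percentile) was 3.32 to 27.05 kb in library 0 and 1.28 to 19.8 kb in library 1. Direct overlap of at least 1 bp was seen for 315 library 0 peaks (5.90%) and 1670 library 1 peaks (14.4%), where 2.16% of all autosomal positions lay in a G9a peak. Wide intervals meet a G9a peak more easily, so all positions of an interval of the same width on the same chromosome were counted too. These gave 4.20% and 5.44%, and ratios of 1.41 and 2.65. Within 10 kb the observed shares were 48.3% (2580) and 57.6% (6682), against 30.6% of all positions and 32.6% and 33.9% of positions of the same widths. Within 50 kb they were 88.1% and 91.3%, against 64.8% of all positions. The ratio to positions of the same width fell in library 1 from 2.65 at overlap to 1.35 within 50 kb. In library 0 it stayed between 1.32 and 1.60 over that range.

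**Figure D3:**
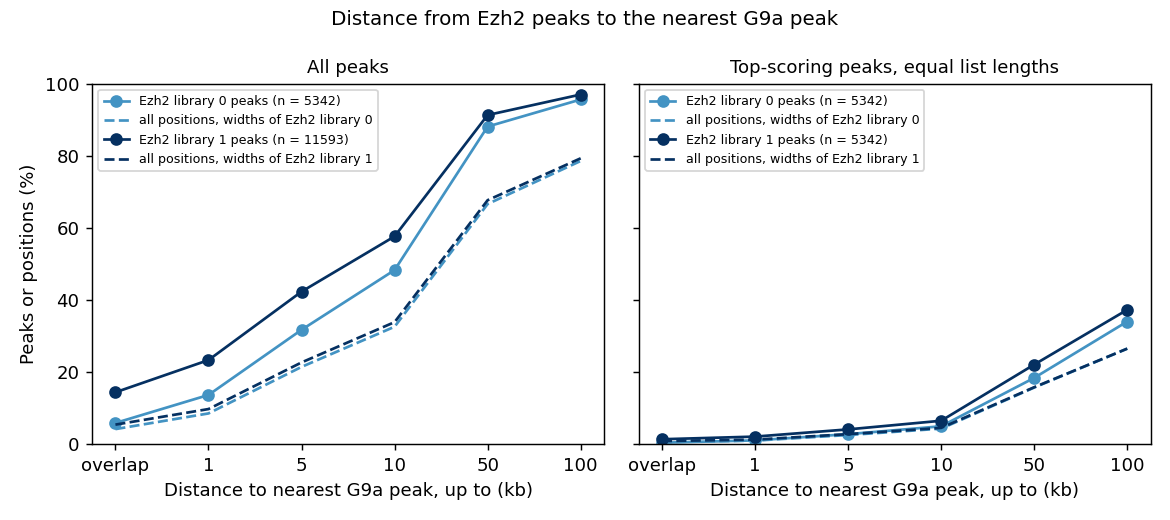
Share (%) of Ezh2 peaks whose nearest G9a peak lies within each distance (solid) and share of all positions of intervals of the same widths (dashed), at unevenly stepped distances, for all peaks (left) and 5342 top-scoring peaks per list (right). Solid lines lie above the dashed ones at each distance on the left; on the right, library 0 lies below at overlap (0.431% against 0.591%).

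Positions of the whole chromosome include stretches where no peak can be called, which raises such ratios, and no mappability track was used. A measure scaled to the local spacing of G9a peaks places each Ezh2 midpoint between its flanking G9a midpoints. Distance to the nearer G9a midpoint, as a part of the interval, was split into 5 equal ranges. Of the library 0 midpoints, 23.3% fell in the nearest range, and 28.6% of those of library 1 did, where even placement would give 20%. The Ezh2 libraries set against each other gave 49.9% and 44.5%. With 5342 peaks per list the shares near G9a were 22.0% and 23.3%, and those of the Ezh2 pair 60.2% and 52.8%.

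At equal list lengths library 0 entered whole, while G9a and library 1 entered with their 5342 top-scoring peaks. Fewer G9a peaks lengthen distances by construction. The median distance to the nearest G9a peak became 182 kb in library 0 and 162 kb in library 1. Overlap fell to 23 library 0 peaks (0.431%, with 0.396% of all positions inside a peak) and 74 library 1 peaks (1.39%). Against positions of the same width the ratios were 0.728 and 1.57, on either side of 1. The same-protein comparison at that length gave overlap of 4774 library 0 peaks (89.4%) with library 1, where 0.466% of all positions lay in a library 1 peak. Within 100 kb of these G9a peaks, where 25.4% of all positions lay, were 34.0% and 37.3% of the Ezh2 peaks. The ratios to positions of the same width were 1.28 and 1.41. Leaving the Ezh2 lists whole and holding G9a to scores of at least 100 (7196 peaks) gave medians of 139 and 115 kb.

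Weak and strong Ezh2 peaks lay at like distances from G9a but differed in overlap. Over the 10 score groups of library 0 the median distance ranged from 9.35 to 12.6 kb, and over those of library 1 from 6.33 to 8.70 kb. Overlap relative to positions of the same width was 1.93 in the lowest-scoring 10% of library 0 and 0.443 in the highest-scoring 10%, where 19 of 534 peaks (3.56%) held a G9a peak against 8.03% of such positions. In library 1 this ratio was 2.55 in the lowest group, peaked at 3.73 in the fifth and was 1.46 in the highest. Within 10 kb the highest groups still had ratios of 1.26 and 1.54.

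Overlap by width gave the same picture. For library 0 peaks under 500 bp, 162 of 2829 (5.73%) overlapped G9a, against 3.12% of positions of that width. For those of 2 to 5 kb it was 14 of 321 (4.36%) against 9.08%. None of the 15 peaks of at least 5 kb held a G9a peak, against 19.5% of such positions. With 15 peaks, which need not be independent, no conclusion is drawn. In library 1 the shares rose with width, from 10.5% of peaks under 500 bp to 21.1% (74 of 351) of those of at least 5 kb. The ratio to positions of the same width fell from 3.13 to 1.12. Seen from G9a, 2 of the 100 peaks of at least 5 kb held a library 1 peak, against 4.06% of positions. None held a library 0 peak, where positions gave 1.20%, so 0 of 100 says little.

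G9a coverage was therefore measured against distance from the edges of Ezh2 domains, with peaks within 1 kb joined. Outside, from 20 to 50 kb from an edge, G9a peaks covered 3.27% of bases around library 0 domains and 3.32% around library 1 domains. Coverage was higher near the edge, at 4.85% and 6.06% in the first 0.5 kb outside. The rise was not even in library 0, where coverage was lowest from 2 to 5 kb outside (3.14%) and highest from 0.5 to 1 kb (4.93%). Just inside the edge, over 0.5 kb, it was 4.44% in library 0 and 9.38% in library 1. Deeper inside it fell in both libraries. From 1 to 2 kb inside it was 0.692% and 4.90%, and beyond 2 kb inside 0.321% and 2.13%.

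**Figure D4:**
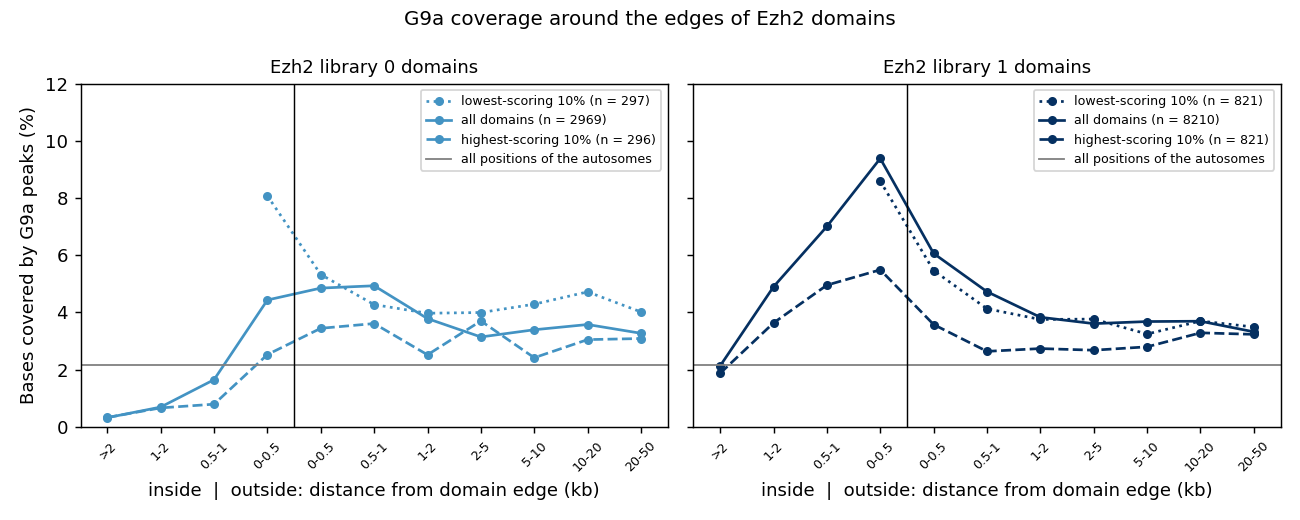
Bases covered by G9a peaks (%) by distance in kb from the edge of Ezh2 domains, inside (left of the vertical line) and outside, for library 0 and library 1; points with fewer than 20 kb of bases are left out. Coverage is lowest beyond 2 kb inside (0.321% and 2.13% for all domains) and the grey line marks the 2.16% of all autosomal positions.

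Domains differ in width, and narrow ones have no deep bases. The fall was therefore also measured within the highest-scoring 10% of domains. Coverage there went from 2.53% in the outermost 0.5 kb inside to 0.329% beyond 2 kb in library 0 (296 domains). In library 1 (821 domains) it went from 5.49% to 1.87%. Domains wider than 4 kb numbered 253 in library 0 and 775 in library 1, and 7 (2.77%) and 118 (15.2%) held a G9a peak more than 2 kb inside. The share of all positions of such widths that meet a G9a peak was not computed, so these shares alone show neither depletion nor excess. Coverage of these deep bases was 0.321% and 2.13%, where 2.16% of all autosomal positions lay in a G9a peak. Without the 10 widest domains of each library the coverage there was 0.224% and 2.38%. Around strong domains the outer bases were less covered than around all domains: 3.45% in library 0 and 3.58% in library 1 in the first 0.5 kb outside. Around the lowest-scoring 10% they were 5.33% and 5.47%. The coverage of Ezh2 in G9a domains also fell inward. Library 1 covered 1.88% of the outermost 0.5 kb of G9a domains and 0.492% of bases beyond 2 kb inside, and library 0 covered 0.224% and 0.0336%.

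Few G9a peaks were close to Ezh2, whose lists were shorter, but more than positions of the same widths would give. Of the 67077 G9a peaks, 311 (0.464%) overlapped library 0 and 1705 (2.54%) overlapped library 1. Of all positions, 0.162% and 0.601% lay in such peaks. Positions of the same widths as the G9a peaks gave 0.298% and 0.983%, and ratios of 1.56 and 2.59. Within 10 kb the ratios to positions of the same widths were 1.50 and 1.68. The median distance from a G9a peak to Ezh2 was 260 kb for library 0 and 77.6 kb for library 1. These medians were 56.3% and 36.4% of the mean spacing of the Ezh2 lists. Overlapping and other G9a peaks had like scores, with medians of 30.17 and 31.71 for library 0 and 33.82 and 31.64 for library 1. In bases, 2.63% of library 0 and 6.49% of library 1 were shared with G9a, which is 0.197% and 1.80% of the bases of G9a. The Ezh2 lists shared 96.1% of the bases of library 0 and 25.8% of those of library 1.

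Counts in 1 Mb bins describe the proteins at the scale of chromosome domains. Of 2463 full bins, 2325 held a G9a peak, 1354 a library 0 peak and 1932 a library 1 peak. Ezh2 without G9a was found in 5 bins, and G9a without Ezh2 of either library in 379. Over the 2330 bins with a peak of any list, Pearson's r between G9a and Ezh2 counts was 0.16 for library 0 and 0.42 for library 1 (mean 0.29 ± 0.18, SD, n = 2). Spearman's rho was 0.36 and 0.60. The Ezh2 libraries had an r of 0.67 and a rho of 0.70 with each other. Bins are not replicates, and their counts share mappability, base composition and the pooled inputs used as control, so no p is given.

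**Figure D5:**
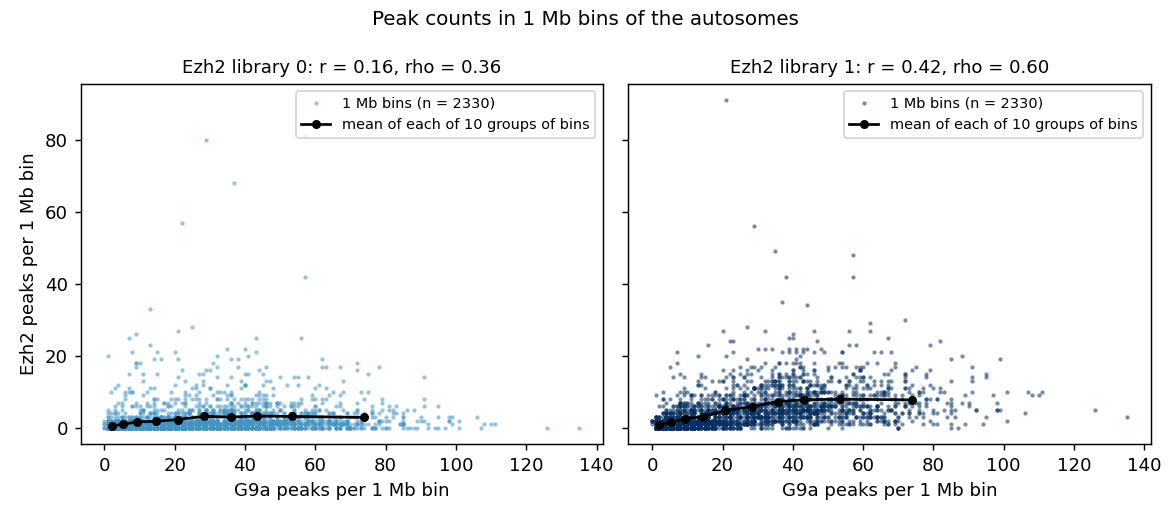
Ezh2 peaks against G9a peaks in each 1 Mb bin for library 0 and library 1; black points are the means of 10 equal groups of bins ordered by G9a count. Library 0 means level off from the group with a mean of 28.3 G9a peaks per bin and library 1 means from that with 43.3, and the fullest Ezh2 bins hold 21 to 57 G9a peaks.

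Ezh2 density climbed with G9a density and then levelled off. The 2330 bins were ordered by G9a count into 10 groups of 233 bins. In the group with fewest G9a peaks (mean 2.03 per bin), there were 0.575 library 0 and 0.841 library 1 peaks per bin. Library 0 had 3.21 peaks per bin in group 6 (mean 28.3), and from there on between 2.89 and 3.27. Library 1 had 5.92 in that group and 7.79 in group 8 (mean 43.3). In group 10 (mean 74.0) the values were 2.89 and 7.77. Bins without a library 1 peak made up 60.5% of the lowest group and 2.15% of the highest.

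The correlation rose with bin size. In 5 Mb bins r with G9a was 0.43 for library 0 and 0.72 for library 1, and the Ezh2 pair had 0.71. In 10 Mb bins the values were 0.47, 0.77 and 0.71, so at that scale r of library 1 with G9a was above its r with the other Ezh2 library. In the 16654 bins of 0.1 Mb with a peak, r was -0.01, 0.06 and 0.61. With all 24712 such bins, empty ones included, it was 0.05, 0.19 and 0.61.

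The correlation with G9a was higher for weak than for strong peaks of library 1, with no such trend over the score groups of library 0. Over the 10 score groups of library 1, r with G9a was 0.33 in the lowest and 0.14 in the highest, while r with library 0 went from 0.25 to 0.85. Library 1 peaks without a library 0 peak (8997, median score 45.56) had an r of 0.44, and those with one (2596, median score 659.7) had 0.23, though these subsets differ in size. In library 0 r was 0.23 in the lowest group and between 0.07 and 0.11 in the others, with the highest-scoring group at the top of that range. For the score groups of G9a, r with library 1 was 0.34 in the lowest and 0.26 in the highest, and with library 0 0.14 and 0.08. At equal list lengths, over the same 2330 bins, r was 0.07 for library 0 and 0.15 for library 1, and 0.76 between the Ezh2 libraries.

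The correlation of the full lists was also taken by chromosome, and for library 0 it came close to 0 on some. Within each of the 19 autosomes r was above 0, ranging from 0.01 on chromosome 9 to 0.29 on chromosome 8 for library 0 (median 0.16). For library 1 it ranged from 0.20 on chromosome 11 to 0.56 on chromosome 1 (median 0.40). Chromosome 11 had the highest density in all 3 lists, with 46.1 G9a, 3.73 library 0 and 8.95 library 1 peaks per Mb. The lowest density was on chromosome 3 for G9a (18.99 per Mb) and on chromosome 16 for Ezh2 (1.26 and 2.85). Chromosomes 1, 8 and 11 stood apart for G9a, with 39.4 to 46.1 peaks per Mb and median widths of 733 to 863 bp. The other 16 had 18.99 to 27.7 per Mb and 549 to 592 bp. In Ezh2 the ranges of these sets overlapped in library 0, at 2.04 to 3.73 and 1.26 to 2.98 per Mb. They overlapped in library 1 too, at 5.66 to 8.95 and 2.85 to 6.23 per Mb. Over the 19 chromosomes, the density of G9a had an r of 0.57 with library 0 and 0.84 with library 1. Over the 16 without chromosomes 1, 8 and 11 it was 0.47 and 0.57. The mean r in 1 Mb bins was 0.26 without those 3, against 0.29. The median Ezh2 to G9a distance was shortest on chromosome 1 (5.84 and 4.19 kb) and longest on chromosome 16 (24.5 and 12.1 kb). Within 10 kb of G9a lay 63.9% and 68.5% of Ezh2 peaks on chromosome 1, against 46.7% of its positions. On chromosome 16 the shares were 33.9% and 47.1%, against 23.8% of positions. Chromosome 11 also had the widest peaks in each list, with medians of 863 bp for G9a and 632.5 and 903 bp for Ezh2.

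The fullest bins of each list were ranked. The 5 bins with most G9a peaks had 135 (chromosome 13, 98 to 99 Mb), 126 (chromosome 16, 30 to 31 Mb), 111 and 110 (chromosome 1, 155 to 156 and 135 to 136 Mb) and 108 (chromosome 4, 57 to 58 Mb). They held 0 or 1 library 0 peaks and 3 to 10 library 1 peaks, against medians of 1 and 3 over all bins. For library 1, 3 of them ranked at the 80.9th to 84.5th percentile of bins. Those on chromosomes 13 and 16 ranked at 41.3 and 59.2. In library 0 the fullest bins had 81 (chromosome 11, 96 to 97 Mb), 80 (chromosome 15, 102 to 103 Mb), 68 (chromosome 6, 52 to 53 Mb), 57 (chromosome 2, 74 to 75 Mb) and 42 peaks (chromosome 5, 120 to 121 Mb). Their G9a counts were 57, 29, 37, 22 and 57, against a median of 22 over all bins. Both bins with 57 stood at the 87.3rd percentile for G9a. In library 1 the fullest bin was on chromosome 18 from 37 to 38 Mb, with 91 library 1, 27 library 0 and 21 G9a peaks. The bin on chromosome 19 from 45 to 46 Mb had 49, 22 and 35. The other 3 were those on chromosomes 15, 11 and 5 named for library 0.

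The 5 highest-scoring peaks of each Ezh2 library lay at widely different distances from G9a, and none of the 10 overlapped it. Of positions of the same widths, 19.3% for library 0 and 15.3% for library 1 overlapped G9a, so 0 of 10 says little. The score stops ranking peaks at this end: 322 library 1 peaks shared a value of exactly 3100 and 16 were above it, while all 5 of library 0 stood at 3100. In library 0, the widest peak on chromosome 11 (84332530 to 84343373) had a G9a peak 22 bp away. A chromosome 9 peak (62989423 to 62994612) lay 147 bp from G9a. For one of chromosome 5 (33772639 to 33778438) it was 190 bp, and for another of chromosome 11 (21892622 to 21898911) it was 3104 bp. The library 0 peak on chromosome 17 from 39979890 to 39983786 was 477 kb from the nearest G9a peak and 1021611 bp from the nearest library 1 peak. Whether it lies in repeated sequence was not tested, since no mm9 genome was used. The nearest of the library 1 peaks to G9a (103631401 to 103637957, chromosome 11) lay 7.41 kb away. It was followed at 8.47 kb by one of chromosome 9 (36950578 to 36954833) and at 9.97 kb by one of chromosome 8 (94321495 to 94326231). The others lay 84.0 kb (18599309 to 18606069, chromosome 2) and 188 kb (102488912 to 102491515, chromosome 10) away. Of the 338 library 1 peaks with scores of at least 3100, 63 (18.6%) overlapped G9a, against 16.95% of positions of the same widths. Within 10 kb lay 169 (50%), against 38.5%. Of the top 53 of library 0, the highest-scoring 1%, 1 (1.89%) overlapped G9a, against 13.1% of such positions, and 24 (45.3%) lay within 10 kb, against 40.4%.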

How the data were processed

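The deposited peak lists of the 3 wild-type libraries were used. The submitters' processing notes name Bowtie 0.12.7, MACS 1.4 and the build mm9. The design text says that the authors combined the wild-type inputs and set both proteins against that mix. Column 5 of the deposited lists is the authors' score per peak, which MACS defines as 10 times the negative log10 of its p. The sources used here give no call threshold. On that scale the lowest scores stand for a MACS p of 0.01 in G9a, 4.99e-05 in library 0 and 0.001 in library 1. Starts and ends are other deposited values, in bp, printed 1-based. Per the labels' protocols, formaldehyde was used at 1% for 10 min, and G9a samples had 2 mM DSG for 45 min before it.

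Samples were grouped by title. Widths, gaps and distances are edge to edge, bins count peak midpoints, and background shares count all positions of chromosomes 1 to 19 exactly. Score groups are 10 groups of equal size within a list. No test was run, and no interval is given because neighbouring peaks are not independent. The knockout and rescue lists were not used, and no gene or sequence is given because no mm9 annotation or genome was used. Regions were named by fixed ranks: the 3 widest peaks, 3 largest clusters, 5 fullest bins and 5 highest-scoring Ezh2 peaks of each list, and chromosomes by density. The members, measures and rules were chosen with earlier results of these data known. Alternatives covered scores, list length, joining, chromosomes, bins and each Ezh2 library. Domain edges, relative distance, score groups and width classes were added after seeing the lists. Python 3.11.15, numpy 2.4.6, scipy 1.17.1 and matplotlib 3.10.9 were used, with mm9 lengths from GenomeInfoDb 1.38.1. Procedures were tested on simulated data.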

Additional observations from a re-analysis of the deposited data

How the results depend on the processing

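The mean log2 width ratio of Ezh2 to G9a (-0.08) became -0.89 at equal list lengths and 0.37 with peaks within 1 kb merged, and was -0.39 to 0.23 when either Ezh2 library was left out. The mean difference in peaks with a neighbour within 10 kb (-4.68 points) became 20.9 with scores of at least 100, 31.3 at equal list lengths, 29.8 with G9a alone held to the length of each Ezh2 list, and -32.5 with peaks merged. It was 5.81 for neighbours within 5 kb and -19.2 within 50 kb, and -11.2 to 1.87 when either Ezh2 library was left out. The mean median distance from Ezh2 to G9a (8.94 kb) became 134 kb with scores of at least 100, 172 kb at equal list lengths and 127 kb with G9a scores of at least 100, and was 7.33 to 10.5 kb when either library was left out. The mean r in 1 Mb bins (0.29) became 0.0206 with scores of at least 100, 0.0296 at equal list lengths, 0.57 in 5 Mb bins and 0.48 as Spearman's rho. With the 2330 bins of the full lists held fixed it was 0.10 with scores of at least 100 and 0.11 at equal list lengths, so part of that fall came from which bins entered. It was 0.16 to 0.42 when either library was left out. Of the 40 alternatives that keep both Ezh2 libraries, 24 kept the sign and moved the value by less than 1 SD of those libraries, 11 kept the sign and moved it by more, and 5 turned the sign. Leaving out either library cannot move a mean of 2 by 1 SD, so it says nothing of stability; without library 0 the width value turned sign, and without library 1 the neighbour value did. Adding chromosome X, leaving out chromosomes 1 and 8, and leaving out chromosomes 1, 8 and 11 were among the 24 for each of the 4 results. Alternatives that hold the G9a list to fewer peaks lengthen distances by construction; the cause of the other shifts was not tested. The alternatives with single G9a score groups, fixed bins, G9a alone shortened or held to scores of at least 100, and without chromosomes 1, 8 and 11 were chosen after seeing the data. No paired analysis was possible because the G9a and Ezh2 groups share only the number 1 and no test was run.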

Other observations

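Chromosome X, which the comparison left out, had few called peaks per Mb in each list. Whether the copy number or mappability of X plays a part was not tested. It held 239 G9a peaks, 83 library 0 peaks and 172 library 1 peaks, or 1.43, 0.498 and 1.03 per Mb. The autosomal densities were 18.9, 4.34 and 4.54 times as high, so the gap was wider for G9a than for either Ezh2 library. The median width of peaks on X was 487, 357 and 688 bp in that order, below the autosomal median of each list.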
